A study of Mus musculus with 9 samples.

Results

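The core circadian clock loop of mouse liver was followed in whole-liver RNA-Seq through 10 genes, *Arntl*, *Clock*, *Npas2*, *Per1*, *Per2*, *Per3*, *Cry1*, *Cry2*, *Nr1d1* and *Nr1d2*, out of 43346 genes in the deposited count table. They were chosen by gene name and by no threshold on a value, but with earlier results from the counts of these same livers known. All 10 were among the 15024 genes that had enough counts to be tested. The adjusted p-values given for them come from 1 fit across all tested genes and describe these livers; they are not independent evidence for a list chosen this way.

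The study asked how inhibition of the phosphatase SHP2 changes liver regeneration after removal of 70% of the liver. All mice were C57/BL6 in the sample records (C57BL/6J in the methods), male and 12 weeks old, with no engineered allele named, and were housed in a light-dark cycle. The baseline group held 3 pieces of liver resected at surgery (0 h) from mice given vehicle. The vehicle group held 3 liver remnants of vehicle-treated mice collected 40 h after surgery, and the NSC group held 3 remnants collected at the same time from mice given NSC-87877 (NSC), an SHP2 inhibitor, by injection at 15 mg/kg per day, split into 2 doses of 7.5 mg/kg. The sample records start dosing 12 h before surgery (the methods, 1 day before), so the vehicle-treated baselines also had vehicle injections before resection. No NSC-treated baseline was analysed here, and the sources do not say if a baseline and a remnant of the same number are from 1 mouse. The methods state that surgery was done in small cohorts so that its timing relative to day and night was uniform, but the clock hour of each collection is not given in the sources used here. A remnant collected at 40 h is 16 h past whole days of 24 h from its own surgery, so hepatectomy and time of day cannot be told apart in either comparison with baseline. Both 40 h groups were collected at the same interval and share the same 3 baselines.

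The liver clock is a feedback loop of transcription. *Arntl* (BMAL1) pairs with *Clock* or *Npas2* and activates genes that carry E-box motifs, among them the *Per*, *Cry* and *Nr1d* genes. PER and CRY proteins then repress that activator, while REV-ERBα and REV-ERBβ, the products of *Nr1d1* and *Nr1d2*, repress *Arntl*, *Clock* and *Npas2*, and *Cry1* in part. The activator arm and the repressor arm therefore peak at opposite times of day in liver, and D-box motifs, bound by DBP, TEF and HLF, add further phases.

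The motifs named above were read from the 250 bases before RefSeq transcription starts on GRCm38.p6, which were found for 9 of the 10 genes (all but *Per2*) in 13 windows. The windows of 5 genes held an E-box, its E-prime variant or a D-box, and the stretches around these matches are shown for that reason, with the motif in capitals. *Per3*, a period gene, had 2 D-box matches (TTANGTAA) on the minus strand, at chr4:151044852-151044881 and chr4:151044805-151044834.

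Per3 D-box, distal: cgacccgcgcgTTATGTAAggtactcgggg

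Per3 D-box, proximal: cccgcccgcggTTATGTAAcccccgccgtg

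*Per1*, another period gene, had 1 E-box (CACGTG) on the plus strand at chr11:69098772-69098799. *Cry1*, a cryptochrome, had an E-box at chr10:85185098-85185125 on the minus strand.

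Per1 E-box: gcacccaagtcCACGTGcagggatgtgt

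Cry1 E-box: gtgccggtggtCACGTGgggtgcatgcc

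*Cry2*, the other cryptochrome, and *Nr1d1* each had 1 E-prime box (CACGTT, here read as its reverse complement AACGTG), at chr2:92434219-92434246 and chr11:98775389-98775416, both on the minus strand. *Cry1* had an E-prime box too, which lay next to its E-box.

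Cry2 E-prime box: cacatggtgggAACGTGagggggcggag

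Nr1d1 E-prime box: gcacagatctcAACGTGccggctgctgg

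Searched on both strands, these letters occurred in 6.02% (E-box), 3.85% (E-prime box) and 2.06% (D-box) of 32851 promoter windows of the same length. None of the 13 windows held the ROR element core TAGGTCA (2.23% of all windows) or the cyclic AMP response element TGACGTCA (1.55%). Only these exact letters were searched, so variant forms of an element and sites that reach beyond a window would be missed. A match describes letters in a window and is no evidence that a factor binds there.

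Libraries held 23997363 to 42887589 counts, and the limit that a count of 0 allows (3 counts) was 0.0751 to 0.117 CPM, for counting error only. CPM stands for counts scaled to a common library size with TMM factors, and comparisons used the quasi-likelihood test of edgeR with an adjusted p under 0.05 as the threshold for a call. Hepatocyte markers made up most of the summed marker signal, with 92669 to 130801 CPM over 8 genes. Stellate markers summed to 171 to 321 CPM, macrophage markers to 84.7 to 274 CPM and cholangiocyte markers to 4.43 to 18.8 CPM. Cholangiocyte markers were 4.43 to 6.57 CPM in the baselines, 15.1 to 18.8 CPM in the vehicle remnants and 8.77 to 11.8 CPM in the NSC remnants. Macrophage markers were 99.4 to 148, 84.7 to 163 and 165 to 274 CPM in the same order. Mean CPM in the baselines, vehicle remnants and NSC remnants was 3.81, 39.8 and 65.5 for *Marco*, 12.4, 12.5 and 26.7 for *Vsig4* and 4.32, 8.85 and 8.44 for *Cd68*. The macrophage markers *Clec4f* (69.6, 47.7 and 73.3 CPM) and *Csf1r* (27.6, 21.0 and 29.3 CPM) had nearly level means in baselines and NSC remnants. Their means were lower in the vehicle remnants. Neutrophil markers were 1.80 to 6.48 CPM in the baselines and 7.60 to 16.7 CPM in the remnants. Erythroid markers were 215 to 311 CPM in the baselines, 99.3 to 174 CPM in the vehicle remnants and 123 to 219 CPM in the NSC remnants. Most of that difference lay in *Alas2*, with means of 152, 42.7 and 50.1 CPM in the same order. The globin means were 66.6, 55.9 and 72.3 CPM (*Hbb-bs*), 20.6, 19.6 and 22.6 CPM (*Hbb-bt*) and 19.2, 14.4 and 13.9 CPM (*Hba-a1*). Lymphocyte markers were 1.95 to 7.39 CPM in the baselines and 0.775 to 2.16 CPM in the remnants. The part of these cell types in the results was not tested. In whole liver, fewer cells of a type and less RNA per cell cannot be told apart.

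One library stood apart in the clock within its own group, a reading made with earlier results of these livers known. In baseline replicate 2, the activator genes were low and most repressor genes were high relative to the other baselines. The departure of a library is the difference on the log2 CPM scale (with a prior count of 2) between that liver and the average of the other 2 livers of its group. It was -6.08 for *Npas2*, -4.34 for *Arntl*, -2.07 for *Cry1* and -1.30 for *Clock*, and it was 4.56 for *Per3*, 2.35 for *Per2* and 1.66 for *Nr1d2*. The departures of *Cry2* (0.89), *Per1* (0.75) and *Nr1d1* (0.51) were under 1.

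In that library 7 of the 10 genes departed by more than 1, against 6.70% of all tested genes. The median absolute departure was 1.87 over the 10 genes and 0.22 over all tested genes. Among 12699 genes ordered by absolute departure, *Npas2* stood at place 2, *Per3* at 5, *Arntl* at 6, *Per2* at 52 and *Cry1* at 73. On the first principal component of all genes, which held 58.1% of the variance, the same library lay at -77.6, beside the other baselines at -79.6 and -79.7. Its hepatocyte marker sum was 120634 CPM against 125437 and 122317 CPM in baselines 1 and 3, and its depth was 33943842 counts against 32971376 and 31187349. Its macrophage marker sum was 99.4 CPM against 148 and 106 CPM, its neutrophil marker sum 1.80 against 6.48 and 3.50 CPM, and its lymphocyte marker sum 1.95 against 4.49 and 7.39 CPM. The results of the 10 clock genes and the counts of called genes against baseline are therefore given with and without this library. It was singled out from the values of these same genes, so leaving it out narrows their spread by choice. Adjusted p-values without it are descriptions and not independent evidence.

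**Figure D1:**
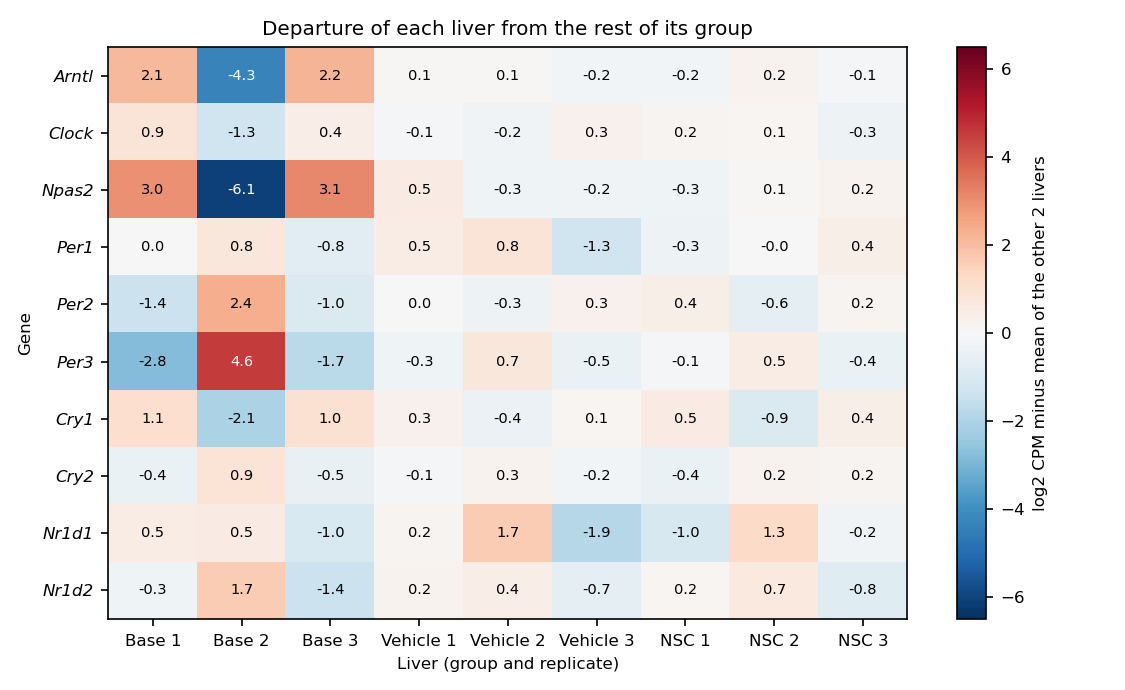
Each cell is the log2 CPM of a gene (rows) in a liver (columns) minus the mean of the other 2 livers of its group, from blue (lower) to red (higher). Baseline replicate 2 runs from -6.08 for *Npas2* to 4.56 for *Per3*; baselines 1 and 3 carry the mirror image because that library is in their reference, and the 40 h livers stay within 1.86.

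Of the loop partners, genes chosen after their values were seen also stood apart in the same library. *Dbp*, a PAR bZIP activator driven by the loop, was 81.0 CPM in baseline replicate 2, 0.411 and 1.29 CPM in the other baselines and 0.554 to 1.32 CPM in the 40 h remnants. *Ciart*, a repressor of the BMAL1 complex, was 30.6 CPM there and at most 1.93 CPM in any other liver. *Tef* was 261 CPM against 48.1 and 48.3 CPM in the other baselines, whereas *Nfil3*, which competes with the PAR bZIP factors for D-boxes, was 39.6 CPM against 149 and 124 CPM. *Cipc*, an inhibitor of CLOCK, was at 31.5, 38.7 and 32.9 CPM in baselines 1 to 3, a departure of 0.27, and 43.4% of all tested genes departed at least as far. *Rora*, an activator of *Arntl*, departed by -0.25 (46.2% of all tested genes), and *Arntl2*, a paralog of *Arntl*, by 0.56 (19.7%).

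Of the activator genes, *Arntl* (ENSMUSG00000055116) encodes the obligate partner BMAL1. It was measured at 33.8, 1.65 and 35.5 CPM in baselines 1 to 3, at 27.4, 27.7 and 24.7 CPM in the vehicle remnants and at 21.6, 25.7 and 22.7 CPM in the NSC remnants. All livers but baseline replicate 2 lay between 21.6 and 35.5 CPM, and baselines 1 and 3 were above all 6 remnants. The log2 fold change was 0.17 ± 0.84 (SE) for vehicle against baseline and -0.02 ± 0.84 for NSC against baseline. Without baseline replicate 2 it was -0.38 ± 0.15 for vehicle (edgeR adjusted p = 0.107) and -0.57 ± 0.15 for NSC (edgeR adjusted p = 0.0173). The annotated antisense gene *Gm45355* overlaps an exon of *Arntl*; the library kit kept strand, but the strand setting of the counting is not stated.

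*Npas2* (ENSMUSG00000026077), which can take the place of CLOCK, was 8.02, 0.0611 and 8.51 CPM in the baselines. It was 8.38, 5.73 and 5.87 CPM in the vehicle remnants and 3.36, 3.97 and 4.34 CPM in the NSC remnants. Baseline replicate 2 had 2 counts of it, so its value carries an exact Poisson interval of 0.00740 to 0.221 CPM (95%), and the other baselines were 135 times higher on average (37.3 to 1120 by counting error). The 3 NSC remnants lay below all 3 vehicle remnants, with a log2 difference of -0.78 ± 1.01 (edgeR adjusted p = 0.704). The standard error was 0.22 and the adjusted p 0.121 when baseline replicate 2 was left out. Against the remaining baselines the NSC remnants were at -1.09 ± 0.24 (edgeR adjusted p = 0.00726) and the vehicle remnants at -0.31 ± 0.24 (edgeR adjusted p = 0.405).

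*Clock* (ENSMUSG00000029238), the histone acetyltransferase partner of BMAL1, was 54.6, 20.2 and 45.3 CPM in the baselines. It was 53.8, 49.4 and 63.3 CPM in the vehicle remnants and 76.9, 74.9 and 61.4 CPM in the NSC remnants. The NSC remnants were above all 3 baselines and overlapped the vehicle remnants. The log2 fold change against baseline was 0.83 ± 0.30 for NSC (edgeR adjusted p = 0.0523) and 0.47 ± 0.30 for vehicle (edgeR adjusted p = 0.276). These were 0.51 ± 0.18 (edgeR adjusted p = 0.0495) and 0.15 ± 0.18 (edgeR adjusted p = 0.585) without baseline replicate 2. The NSC value also passed without baseline replicate 1 (1.12, edgeR adjusted p = 0.0197) and with DESeq2 (0.83, adjusted p = 0.0201). A correction for GC content, chosen after seeing the data, brought it to 0.29 (edgeR adjusted p = 0.457).

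**Figure D2:**
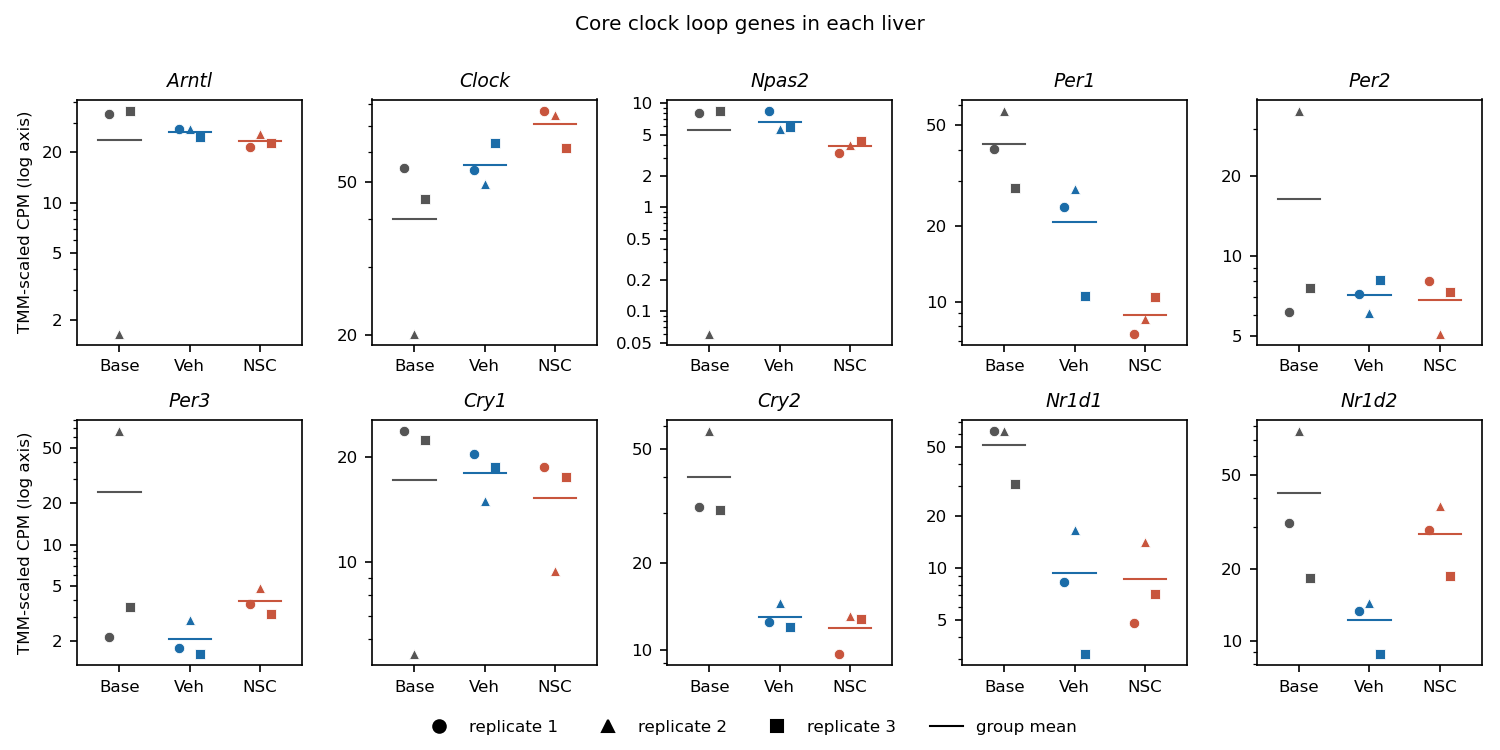
CPM (log axis, own range for each gene) in each liver by group: baseline (Base), vehicle at 40 h (Veh) and NSC at 40 h (NSC). Symbols give the replicate number and the line is the mean of 3; the baseline triangle (replicate 2) is apart from the other baselines for *Arntl*, *Npas2*, *Per2* and *Per3*, where the 40 h livers lie closer to baselines 1 and 3 than to it.

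Among the period genes, which encode the PER repressors, *Per1* (ENSMUSG00000020893) was 40.4, 57.0 and 28.3 CPM in the baselines. It was 23.7, 28.1 and 10.6 CPM in the vehicle remnants and 7.50, 8.59 and 10.5 CPM in the NSC remnants. The highest vehicle remnant was just under the lowest baseline, and the lowest vehicle remnant was just above the highest NSC remnant, so the 3 groups did not overlap. The log2 fold change was -2.24 ± 0.37 for NSC against baseline (edgeR adjusted p = 0.00197) and -1.01 ± 0.36 for vehicle against baseline (edgeR adjusted p = 0.0686). It was -1.96 ± 0.36 and -0.72 ± 0.35 without baseline replicate 2 (edgeR adjusted p = 0.00439 and 0.188). NSC against vehicle gave -1.23 ± 0.36, with a 95% interval of -2.05 to -0.41 and an edgeR adjusted p of 0.134. Without baseline replicate 2 this difference was -1.24 ± 0.33 (edgeR adjusted p = 0.119). Leaving out vehicle replicate 3, the liver with 10.6 CPM, gave -1.55 (edgeR adjusted p = 0.0487). Vehicle against baseline passed without baseline replicate 3 or vehicle replicate 2 (-1.22 and -1.28, edgeR adjusted p = 0.0463 and 0.0475), with DESeq2 (adjusted p = 0.0123) and with a correction for GC content (edgeR adjusted p = 0.0376). The GC correction also made the other *Per1* differences smaller. They were -1.83 for NSC against baseline (edgeR adjusted p = 0.00300) and -0.82 for NSC against vehicle.

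*Per2* (ENSMUSG00000055866) was 6.16, 35.1 and 7.56 CPM in the baselines and 5.09 to 8.08 CPM over the 6 remnants. The vehicle remnants had 7.18, 6.06 and 8.08 CPM and the NSC remnants 8.01, 5.09 and 7.32 CPM. Both remnant groups overlapped the baselines, and only baseline replicate 2 was above 8.08 CPM. Fold changes against baseline were -1.20 ± 0.63 for vehicle and -1.26 ± 0.63 for NSC on the log2 scale (edgeR adjusted p = 0.210 and 0.162). They were 0.05 ± 0.25 and -0.01 ± 0.25 without baseline replicate 2 (edgeR adjusted p = 0.911 and 0.980).

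*Per3* (ENSMUSG00000028957), which carries the D-box pair shown above, was 2.15, 66.6 and 3.56 CPM in the baselines. The vehicle remnants had 1.78, 2.85 and 1.62 CPM and the NSC remnants 3.75, 4.82 and 3.17 CPM. The 3 NSC remnants lay above all 3 vehicle remnants, with a log2 difference of 0.90 ± 1.27 (edgeR adjusted p = 0.732). That standard error draws on all 9 livers. It was 0.31, with an edgeR adjusted p of 0.171, without baseline replicate 2. The change against baseline was -3.52 ± 1.32 for vehicle and -2.62 ± 1.26 for NSC (edgeR adjusted p = 0.0996 and 0.153). With that library left out the values were -0.45 ± 0.35 and 0.46 ± 0.35 (edgeR adjusted p = 0.405 and 0.356), so the direction for NSC turned.

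The cryptochromes hold the BMAL1 complex in its repressed state. *Cry2* (ENSMUSG00000068742) was 31.5, 57.9 and 30.8 CPM in the baselines, 12.5, 14.6 and 12.0 CPM in the vehicle remnants and 9.69, 13.1 and 12.8 CPM in the NSC remnants. Every remnant was below every baseline, and the remnant groups overlapped. *Cry2* fell by 1.62 ± 0.24 on the log2 scale in the vehicle remnants (edgeR adjusted p = 0.000869) and by 1.76 ± 0.24 in the NSC remnants (edgeR adjusted p = 0.000371), a mean level 3.08-fold and 3.38-fold below baseline. It fell by 1.26 ± 0.18 and 1.39 ± 0.18 without baseline replicate 2 (edgeR adjusted p = 0.00100 and 0.000414). It passed in all 9 fits that left out 1 library, in both comparisons. The annotated gene *D930015M05Rik* overlaps a *Cry2* exon from the other strand and had 0 to 2 counts per library.

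*Cry1* (ENSMUSG00000020038) was 23.8, 5.44 and 22.3 CPM in the baselines. It was 20.4, 14.9 and 18.7 CPM in the vehicle remnants and 18.7, 9.41 and 17.5 CPM in the NSC remnants. Baselines 1 and 3 were above all 6 remnants and baseline replicate 2 was below them. The log2 fold changes against baseline were 0.07 ± 0.50 for vehicle and -0.17 ± 0.50 for NSC, and -0.36 ± 0.26 and -0.60 ± 0.26 without that library (edgeR adjusted p = 0.367 and 0.104).

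The REV-ERB genes encode nuclear receptors that repress *Arntl*. *Nr1d1* (ENSMUSG00000020889) was 62.0, 62.3 and 30.9 CPM in the baselines, 8.33, 16.7 and 3.21 CPM in the vehicle remnants and 4.86, 14.2 and 7.08 CPM in the NSC remnants. Every remnant was below every baseline, and within each 40 h group the livers spanned 5.19-fold (vehicle) and 2.92-fold (NSC). *Nr1d1* fell by 2.45 ± 0.65 on the log2 scale in the vehicle remnants and by 2.57 ± 0.66 in the NSC remnants (edgeR adjusted p = 0.0325 and 0.0205). Without baseline replicate 2 the sizes were -2.29 ± 0.75 and -2.42 ± 0.76, and neither passed (edgeR adjusted p = 0.0874 and 0.0598). The vehicle call was also lost without baseline replicate 1 or vehicle replicate 1 (-2.30 and -2.36), and the NSC call without baseline replicate 1, NSC replicate 1 or NSC replicate 3 (-2.42, -2.28 and -2.44). *Thra*, a thyroid hormone receptor gene, overlaps *Nr1d1* exons on the opposite strand, and its log2 fold changes were -0.99 ± 0.22 for vehicle and -1.25 ± 0.23 for NSC against baseline.

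*Nr1d2* (ENSMUSG00000021775) was 31.2, 76.2 and 18.5 CPM in the baselines. It was 13.4, 14.5 and 8.86 CPM in the vehicle remnants and 29.2, 36.8 and 18.7 CPM in the NSC remnants. The vehicle remnants were below every baseline and below every NSC remnant, while the NSC remnants overlapped the baselines. *Nr1d2* fell by 1.77 ± 0.52 on the log2 scale in the vehicle remnants (edgeR adjusted p = 0.0428), and the NSC remnants were at -0.57 ± 0.50 (edgeR adjusted p = 0.419). Without baseline replicate 2 the vehicle value was -1.01 ± 0.32 (edgeR adjusted p = 0.0503) and the NSC value 0.19 ± 0.32 (edgeR adjusted p = 0.701). The vehicle call was also lost when baseline replicate 1, NSC replicate 1 or any 1 vehicle remnant was left out, with values of -1.95, -1.77 and -1.91 to -1.58. NSC against vehicle gave 1.20 ± 0.51, with a 95% interval of 0.01 to 2.39 and an edgeR adjusted p of 0.252. Without baseline replicate 2 this difference was 1.20 ± 0.29 (edgeR adjusted p = 0.101). A correction for GC content, chosen after seeing the data, brought it to 0.89 with all 9 livers.

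**Figure D3:**
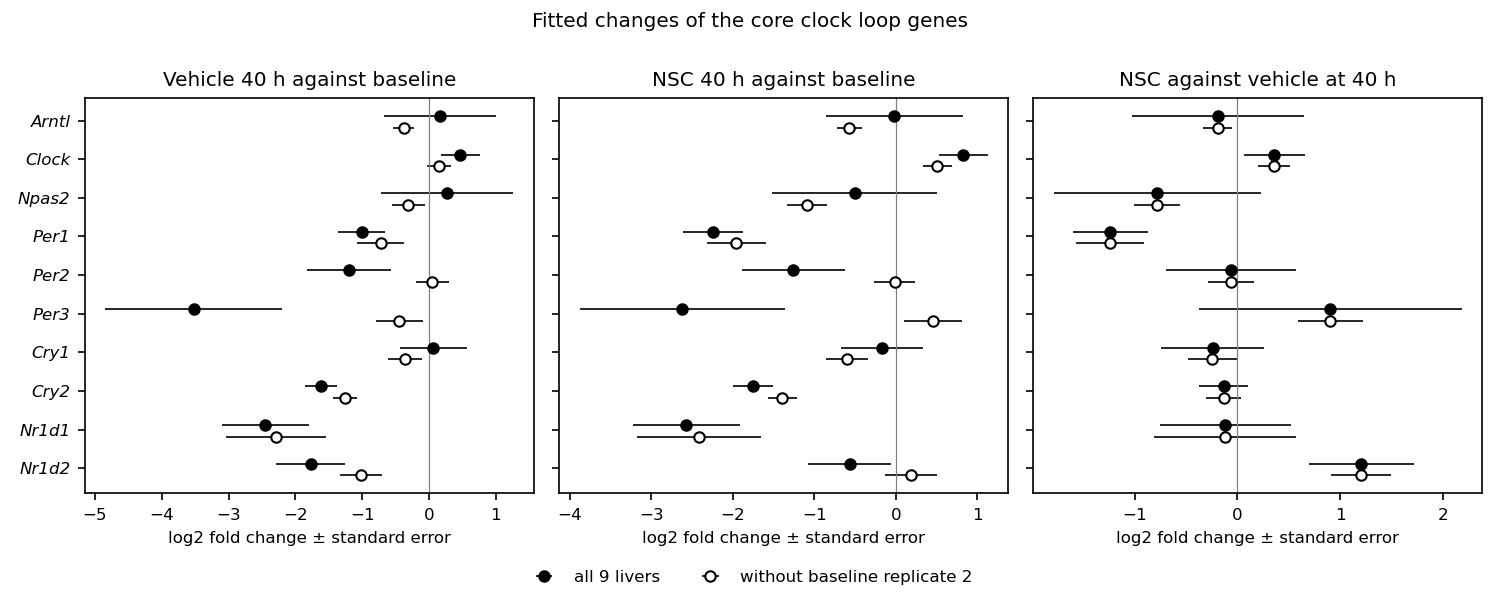
Log2 fold change with its standard error for each gene in the 3 comparisons, each on its own scale, with all 9 livers (filled) and without baseline replicate 2 (open). *Cry2*, *Per1* and *Nr1d1* keep a negative value against baseline either way, whereas *Per3* for NSC against baseline moves from -2.62 to 0.46.

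In the vehicle remnants against baseline, 3 of the 10 genes passed an edgeR adjusted p of 0.05 (*Cry2*, *Nr1d1* and *Nr1d2*), all lower, where 23.7% of all tested genes passed, 11% as lower. The median log2 fold change was -1.10 over the 10 genes and 0.01 over all tested genes. The groups did not overlap for 4 of the 10 genes, all lower, against 46.3% of all tested genes, 22% as lower. With baseline replicate 2 left out, 1 of the 10 genes passed (*Cry2*, lower), where 18.9% of all tested genes did, 8.79% as lower.

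In the NSC remnants against the same baselines, 3 of the 10 genes passed (*Per1*, *Cry2* and *Nr1d1*), all lower, where 34.7% of all tested genes passed, 16.5% as lower. The median log2 fold change was -0.91 over the 10 genes and 0.01 over all tested genes. The groups did not overlap for 4 of the 10 genes, 3 lower and 1 higher, against 47.1% of all tested genes, 23.1% as lower and 24% as higher. When baseline replicate 2 was left out, 5 of the 10 genes passed, where 28.7% of all tested genes did. *Arntl*, *Npas2*, *Per1* and *Cry2* were lower, as were 13.8% of all tested genes, and *Clock* was higher, as were 14.8%.

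Between NSC and vehicle at 40 h, none of the 10 genes passed in the edgeR test, where 0.0399% of all tested genes did, and none passed without baseline replicate 2 (0.0196% of all tested genes). At an unadjusted p under 0.05 there were 2 of 10 (*Per1* and *Nr1d2*), against 19.5% of all tested genes. DESeq2 called 1 of the 10, *Per1*, and 5.05% of all tested genes. The groups did not overlap for 4 of the 10 genes, *Npas2* and *Per1* lower and *Per3* and *Nr1d2* higher with NSC, where 22.5% of all tested genes did not overlap, 12.2% as lower and 10.3% as higher. The 95% intervals of the log2 difference ran from -0.65 to 0.39 for *Cry2*, -0.30 to 1.01 for *Clock* and -1.61 to 1.37 for *Nr1d1*. These intervals use a spread estimated with all 9 livers, baseline replicate 2 among them. Without that library the differences were -0.14 ± 0.17, 0.36 ± 0.16 and -0.12 ± 0.69 in the same order.

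Levels of different genes were compared per length, as FPKM computed from the scaled counts. In baselines 1 and 3, *Nr1d1* had the highest mean level (15.1 FPKM), followed by *Arntl* (11.9), *Cry1* (7.65), *Clock* (6.68), *Per1* (6.10), *Nr1d2* (4.96), *Cry2* (4.92), *Npas2* (1.73), *Per2* (1.17) and *Per3* (0.297 FPKM). Neighbours in that order overlapped for *Nr1d1* and *Arntl* and from *Clock* through *Per1* and *Nr1d2* to *Cry2*. In baseline replicate 2, *Nr1d1* was 20.3 FPKM, *Per3* 6.93 FPKM and *Arntl* 0.568 FPKM.

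In the vehicle remnants the highest mean levels were those of *Arntl* (9.16 FPKM), *Clock* (7.42) and *Cry1* (5.97), and *Per3* was lowest (0.217 FPKM). *Nr1d1*, the highest in the baselines, was at 3.06 FPKM and overlapped its neighbours *Per1* (3.69) and *Nr1d2* (2.45 FPKM). In the NSC remnants *Clock* (9.51 FPKM) and *Arntl* (8.03) led with overlapping ranges, *Nr1d2* followed at 5.65 FPKM, and *Per3* was again lowest at 0.407 FPKM.

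The log2 ratio of *Arntl* to *Nr1d1* FPKM was read in each liver. It sets 1 activator gene against 1 repressor gene and does not measure the arms as a whole. It was -0.79, -5.16 and 0.29 in baselines 1 to 3, 1.80, 0.82 and 3.02 in the vehicle remnants, and 2.23, 0.94 and 1.76 in the NSC remnants. Every remnant was above every baseline, and the remnant groups overlapped. The mean was 3.77 higher in vehicle remnants and 3.53 higher in NSC remnants than in baselines (exact permutation test, 2-sided, p = 0.1 for each, the smallest p that 3 against 3 livers allow). The NSC mean was -0.24 relative to vehicle (exact permutation test, p = 0.9). The differences from baseline were 2.14 and 1.90 without baseline replicate 2. In that fit *Arntl* itself was lower than baseline (log2 fold change -0.38 for vehicle and -0.57 for NSC). *Nr1d1* was at -2.29 and -2.42, so it carried the higher ratio. Other repressor genes differed, with *Cry2* at -1.26 and -1.39 and *Per2* at 0.05 and -0.01.

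**Figure D4:**
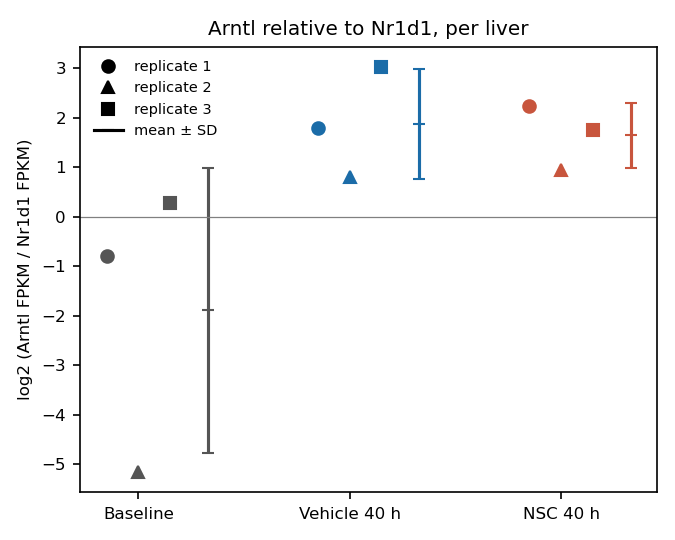
Log2 ratio of *Arntl* to *Nr1d1* FPKM in each liver by group; symbols give the replicate number and the bar at the right of each group its mean and SD (n = 3). The 6 remnants lie between 0.82 and 3.02 and the baselines between -5.16 and 0.29.

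Of 10 tested loop partners (ROR, DEC and PAR bZIP factors and modulators of the BMAL1 complex; *Rorb* was not tested), 1 rose and 2 fell in the vehicle remnants, and 0 rose and 3 fell in the NSC remnants, against the same baselines. Of all tested genes, 12.7% rose and 11% fell with vehicle, and 18.2% rose and 16.5% fell with NSC, and the counts of the lists that follow stand beside the same shares. *Hlf* fell by 0.95 ± 0.19 and 0.58 ± 0.19 on the log2 scale (edgeR adjusted p = 0.00431 and 0.0335). *Tef* fell by 2.30 ± 0.68 (edgeR adjusted p = 0.0464) and *Cipc* rose by 0.53 ± 0.15 (edgeR adjusted p = 0.0267) in the vehicle remnants. *Nfil3* fell by 1.47 ± 0.40 and *Bhlhe40*, which encodes the repressor DEC1, by 1.37 ± 0.40 in the NSC remnants (edgeR adjusted p = 0.0215 and 0.0288).

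Without baseline replicate 2, *Tef*, *Hlf* and *Nfil3* were lower and *Cipc* higher in the vehicle remnants, and *Nfil3* was lower in the NSC remnants, of 9 loop partners tested, so *Hlf* and *Bhlhe40* no longer passed there. In that fit, 1544 of 15331 tested genes rose and 8.79% fell with vehicle, and 14.8% rose and 13.8% fell with NSC. *Dbp* was at -4.95 ± 1.88 for vehicle and -4.53 ± 1.84 for NSC with all 9 livers (edgeR adjusted p = 0.103 and 0.101), a difference that 1 baseline carries.

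**Figure D5:**
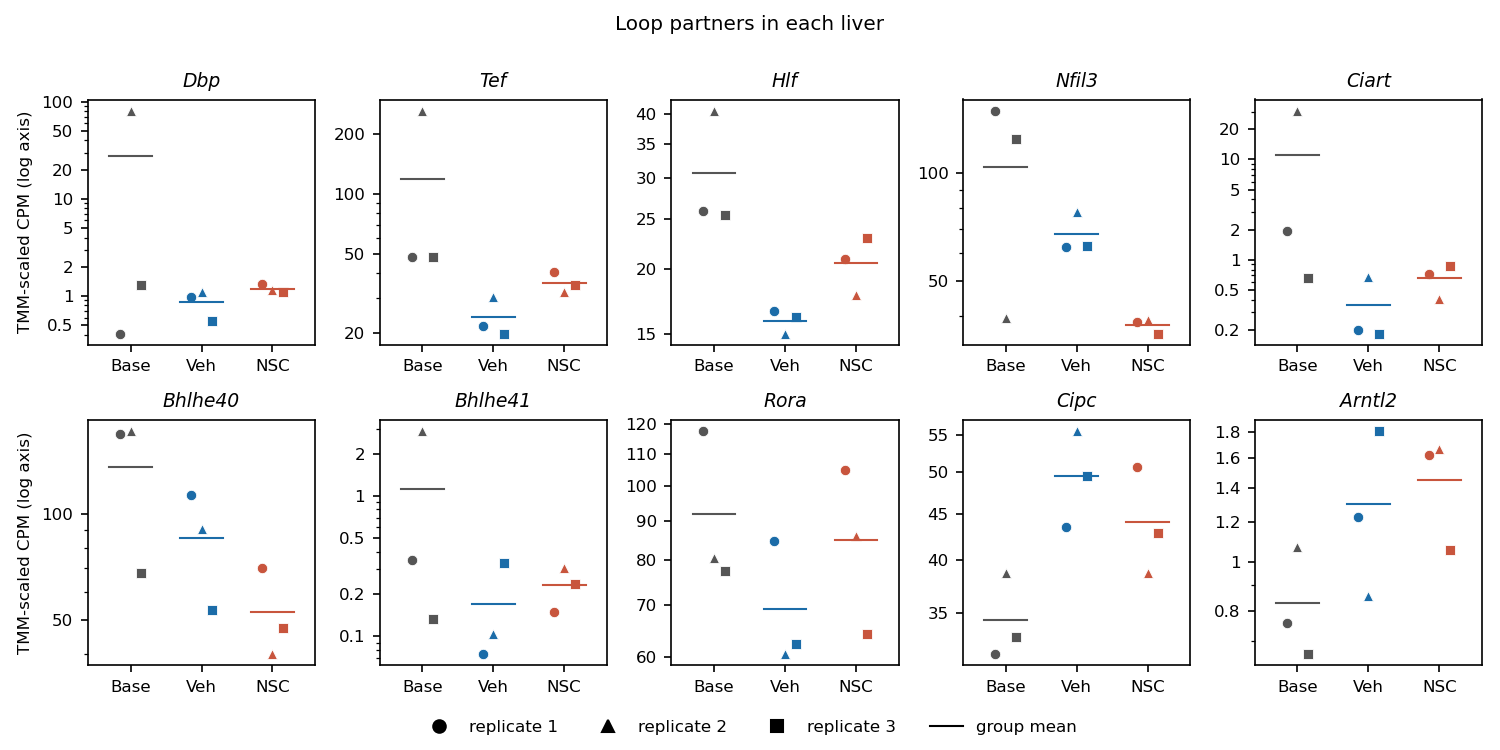
CPM (log axis, own range for each gene) of the 10 tested loop partners in each liver, with the replicate number as symbol and the mean of 3 as line. Baseline replicate 2 is far above the rest for *Dbp* (81.0 CPM) and *Ciart* (30.6 CPM) and lies close to the other baselines for *Cipc* (38.7 CPM).

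Of 17 kinases, ubiquitin ligases and deubiquitinases that act on clock proteins (kinases and ligases below), 0 rose and 2 fell in the vehicle remnants. *Prkaa2* fell by 0.75 ± 0.13 and *Btrc* by 0.55 ± 0.18 on the log2 scale (edgeR adjusted p = 0.00242 and 0.0395). The share that fell was near the 11% of all tested genes. In the NSC remnants 1 rose and 2 fell, with *Prkaa1*, a catalytic subunit of AMP-activated kinase, at 0.72 ± 0.18 and *Btrc* at -0.82 ± 0.18 (edgeR adjusted p = 0.00981 and 0.00418). Of 13 cofactors, 1 rose and 2 fell with vehicle, and 3 rose and 1 fell with NSC. *Sirt1*, a deacetylase that acts on BMAL1 and PER2, rose by 0.69 ± 0.23 and 0.97 ± 0.23 (edgeR adjusted p = 0.0442 and 0.00637).

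Of 6 cell cycle genes linked to the clock, 4 rose and 1 fell in the vehicle remnants, and 3 rose and 1 fell in the NSC remnants. Of all tested genes, 12.7% rose with vehicle and 18.2% with NSC. *Ccnd1*, which encodes cyclin D1, rose by 3.29 ± 0.48 and 2.91 ± 0.47 on the log2 scale (edgeR adjusted p = 0.00220 and 0.00234). *Wee1*, a cell cycle kinase gene, was at 0.06 ± 0.51 and 1.04 ± 0.51 (edgeR adjusted p = 0.950 and 0.138). Of 8 glucocorticoid-induced genes, a list that *Per1* could also belong to, 0 rose and 3 fell in each comparison with baseline. Among all tested genes, 11% fell with vehicle and 16.5% with NSC. *Tat*, tyrosine aminotransferase, fell by 1.25 ± 0.24 and 1.93 ± 0.25 (edgeR adjusted p = 0.00360 and 0.000225). With baseline replicate 2 left out, the kinases and ligases had 0 rising and 1 falling gene for vehicle and 2 and 2 for NSC, with *Btrc* lost for vehicle and *Usp2* added for NSC. The cofactors had 1 and 2 for vehicle and 2 and 1 for NSC, with *Hdac1* lost for NSC. The cell cycle genes had 4 and 1 for vehicle and 5 and 1 for NSC, with *Wee1* and *Cdkn1a* added for NSC. The glucocorticoid-induced genes had 1 and 1 for vehicle (*Zbtb16* and *Tat*) and 0 and 3 for NSC. Over all genes without that library, 1544 of 15331 rose and 8.79% fell with vehicle, and 14.8% rose and 13.8% fell with NSC. In the direct comparison of NSC with vehicle, none of the genes of these lists passed in the edgeR test. At an unadjusted p under 0.05 there were 0 of 10 loop partners, 3 of 17 kinases and ligases, 1 of 13 cofactors, 1 of 6 cell cycle genes and 3 of 8 glucocorticoid-induced genes, against 19.5% of all tested genes. DESeq2 called *Prkaa2*, *Tipin* and *Pck1*, 1 in each of 3 lists, and 5.05% of all tested genes.

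The genes whose profile over the 9 livers was most like that of a clock gene were ranked by the root-mean-square difference between mean-centred log2 CPM values, over 12689 other genes with a mean of at least 1 CPM. For *Arntl* these were *Dtx4* (0.49), *Mpzl1* (0.53), *Loxl4* (0.54) and *Tubb2a* (0.62), where the median gene was at 1.32. For *Per1* they were *Ceacam2* (0.36), *Tat* (0.37), *Pck1* (0.37) and *Mknk2* (0.37), against a median of 1.04. For *Per2* they were *Eif4ebp3* (0.28), *Lipg* (0.31), *Tox* (0.35) and *Slc19a1* (0.37), against 0.83. For *Nr1d1* they were *D130043K22Rik* (0.53), *Map2k6* (0.58), *Hnf4aos* (0.58) and *Scnn1a* (0.61), against 1.47. These are descriptions over 9 livers in which baseline replicate 2 carries much of the *Arntl* and *Per2* profiles.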

How the data were processed

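Whole liver was profiled in 9 samples with a stranded mRNA kit. The authors aligned reads with STAR 2.6.1 and counted them on genes with featureCounts from Subread 1.5.1, per the labels, and deposited raw counts and FPKM for each library. The strand setting is not given in the sources used here. The processing notes name hg38, whereas 33460 of 42462 mouse gene identifiers shared with GENCODE M21 (78.8%) had the same coordinates on GRCm38, as had 7 of the 10 clock genes. All 37 mitochondrial genes were listed at 0. The FPKM deposited by the authors served as an alternative for the *Arntl* to *Nr1d1* ratio.

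Counts were fitted in R 4.3.3 with edgeR 4.0.16 (TMM scaling, filterByExpr, robust quasi-likelihood test, condition as the only term, all 9 libraries, Benjamini-Hochberg adjustment over 15024 genes). CPM values are TMM-scaled, and the standard error is the absolute log2 fold change divided by the square root of F. The members and gene lists were chosen with earlier results of these data known. All 10 clock genes are named, with at most 4 passing genes of smallest adjusted p per list and comparison and the 4 most alike genes for each of *Arntl*, *Per1*, *Per2* and *Nr1d1*; other genes named were chosen after their values were seen, and 1 gene of the loop partner list is not reported here. The fit was tested on simulated vehicle and baseline counts, where it recovered 189 of 200 genes given a 4-fold change and 95 of 200 given a 2-fold change, with 19 and 6 false calls beside them. Libraries of a group differed by a chi-square of 22.9 to 140 per gene, so none duplicated another. The labels do not state whether replicates are separate animals in every group, and p-values measure the spread between these samples. Alternatives were DESeq2 1.42.0, other scaling and filters, a fold threshold, the 2 groups alone, the replicate number as a block and each library left out. Motifs were searched and plots drawn in Python 3.11.15 (pandas 2.3.3, matplotlib 3.10.9). RefSeq windows were read 5′ to 3′, and 9 of the 13 matched the sense strand of a GENCODE transcript over 30 bases after the start.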

Additional observations from a re-analysis of the deposited data

How the results depend on the processing

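Depth and 3 livers per group limit the precision. With baseline replicate 2 left out, *Nr1d1* and *Nr1d2* lost their calls against baseline. The number of the 10 genes that passed was 1 to 4 for vehicle against baseline, 2 to 5 for NSC against baseline and 0 to 1 for NSC against vehicle when 1 library was left out, 1 for vehicle against baseline with all genes of at least 1 count, and 1 for NSC against vehicle with DESeq2. Over all genes, 2285 to 4538, 3604 to 5234 and 0 to 994 passed with 1 library left out, and 1085, 1222 and 3 with a log2 fold change over 1.5. NSC against vehicle gave 1 gene with library size only, 221 with all genes of at least 1 count, 758 with DESeq2 and 0 with a correction for GC content, which was chosen after seeing the data. *Clock* (NSC against baseline) also passed with library size only and when 10 counts were required in each library (edgeR adjusted p = 0.0312 and 0.0465). Library size only shifted the median of all genes to 0.15 and 0.14 in the NSC comparisons with baseline and with vehicle.

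Same-numbered libraries correlated at -0.05 to 0.13 in their deviations from group means, and libraries of different number at -0.115 to 0.0659. Of 18 best partners, each picked among the 3 libraries of another group, 13 had the same number. Whether the numbers pair the livers cannot be decided from these values, because all of the correlations were small and their ranges overlapped. With the replicate number as a block, 4 of the 10 genes passed in each comparison with baseline, with *Per1* added for vehicle (edgeR adjusted p = 0.0442) and *Clock* for NSC (edgeR adjusted p = 0.0366). For vehicle, *Nr1d1* and *Nr1d2* were then at an edgeR adjusted p of 0.00556 and 0.00175. The block let 11 genes of all pass for NSC against vehicle, and *Arntl* (NSC against baseline) was at 0.25 and *Nr1d1* (NSC against vehicle) at 0.030.

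Values with an adjusted p far from the threshold turned direction. With library size only, *Arntl* was at 0.12 (NSC against baseline), and *Per2* at 0.068 and *Nr1d1* at 0.019 (NSC against vehicle). With GC correction, *Per2* was at 0.15, *Cry2* at 0.14 and *Nr1d1* at 0.26 (NSC against vehicle). With 1 library left out, values ran as follows. For vehicle against baseline, *Arntl* ran from -0.38 to 0.59, *Npas2* from -0.31 to 0.73, *Per2* from -1.59 to 0.052 and *Cry1* from -0.36 to 0.37. For NSC against baseline, *Arntl* ran from -0.57 to 0.40, *Per3* from -3.17 to 0.46, *Cry1* from -0.60 to 0.13 and *Nr1d2* from -0.92 to 0.19. For NSC against vehicle, *Per2* ran from -0.20 to 0.11, *Cry1* from -0.42 to 0.010, *Nr1d1* from -0.67 to 0.58 and the log2 ratio of *Arntl* to *Nr1d1* from -0.77 to 0.34. Apart from the baseline left out above, the cause of these turns was not tested. Of 237 gene values under other settings 218 kept direction and side of the threshold, as did 230 of 270 with 1 library left out. DESeq2 gave no adjusted p for *Per3* against baseline, and those values were counted as kept by direction only.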

Other observations

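Genes outside the loop also set baseline replicate 2 apart from the other baselines, and the following were chosen after their values were seen. *Usp2*, a deubiquitinase that acts on clock proteins, was 52.1 CPM in that liver, 3.00 and 2.84 CPM in the other baselines and 2.47 to 10.2 CPM in the remnants. *Rgs16*, a regulator of G protein signaling, was 435 CPM against 47.3 and 29.0 CPM in the other baselines and at most 11.1 CPM in the remnants. *Thrsp*, a lipogenic gene, was 1783 CPM against 224 and 199 CPM, and *Pdk4*, a gene raised by fasting, was 5.10 CPM against 85.0 and 38.9 CPM. *Elovl3*, a fatty acid elongase, was 73.8 CPM against 730 and 689 CPM. The remnants had 14.9 to 57.6 CPM of *Thrsp*, 6.62 to 74.9 CPM of *Pdk4* and 21.1 to 315 CPM of *Elovl3*. For *Elovl3* that range takes in baseline replicate 2.

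Acute phase genes stood apart in the same liver. *Saa3* was 107 CPM against 8.25 and 9.27 CPM, *Saa2* 2752 CPM against 322 and 313 CPM, and *Lcn2* 197 CPM against 20.3 and 27.1 CPM in the other baselines. In the remnants *Lcn2* was 747 to 1597 CPM and *Saa2* 1872 to 6832 CPM. *Saa3* was 28.3 to 37.0 CPM in the vehicle remnants, below that baseline, and 224 to 386 CPM in the NSC remnants. Whether these values and the clock values of that liver share a source was not tested.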
